A study of Rattus norvegicus with 14 samples.

Results

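The genes described here are 7 genes known from mesothelium, the sheet of flattened cells that covers the epididymis and lines the body cavity around it: Msln, Upk3b, Upk1b, Lgals2, Lrrn4, Wt1 and Bnc1. They were found by symbol in the array annotation, each with 1 transcript cluster, among 18166 genes with a single symbol. They had been chosen from these same arrays as genes that decline to day 28 and come back in part at day 60, so their course over age is given as a description, with no test, and supports nothing beyond itself. Epididymides of Sprague-Dawley rats were pooled whole and frozen, giving 14 samples: 3 pools of rats aged 7 days, 4 of rats aged 18 days, 4 from 28 days and 3 from 60 days. None of the labels names a treatment or a genotype, and the number of animals in a pool is not given in the sources used here. Animals of the younger ages (7 and 18 days) were kept with their lactating mothers, and the older ones (28 and 60 days) were fed freely. One RatGene 2.0 ST array was hybridised with each pool, and values are log2 signals, so a difference of 1 is 2-fold. The labels speak of total epididymal cells, so each value mixes covering, capsule, duct epithelium, muscle, vessels and fat, and fewer cells of a type and less RNA per cell cannot be told apart.

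Mesothelium arises from the coelomic epithelium of the embryo, keeps epithelial features such as keratins and surface glycoproteins, and secretes a lubricating fluid between the organs. Msln encodes mesothelin, a surface protein held by a lipid anchor and best known as a mesothelioma antigen. Upk3b and Upk1b encode uroplakins, membrane proteins first described in the bladder lining; the first is used as a mesothelial marker and the second is a tetraspanin. Lrrn4 encodes a membrane protein with leucine-rich repeats that labels mesothelium in several organs, and Lgals2 a galectin, a lectin that binds galactosides. Wt1 is a zinc finger transcription factor of coelomic epithelium, mesothelium, podocytes and Sertoli cells, and Bnc1 a zinc finger protein of surface epithelia and mesothelium.

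Promoter sequence is shown to set the genes side by side at the DNA level. RefSeq (build GRCr8) gave a window of 250 bases before the transcript start for 6 of the 7 genes; Msln was not in the table used. Both strands of each window were searched for 5 motifs, none of which contains another: the long WT1 motif (in 0.0299% of 33469 windows of this length), the shorter EGR and WT1 motif (2.45%), the GATA motif GATAAG (6.18%), the TATA box (12.9%) and the TEAD motif GGAATG (12.1%). The TEAD letters were in 3 of the 6 windows, those of Upk1b, Lgals2 and Lrrn4, and the other 4 motifs were in none of the 6. The 4 sequences that follow show these 3 windows and that of Upk3b, the fellow surface marker without the letters, 5′ to 3′ on the strand of the gene, with the TEAD letters, on either strand, in capitals; bases that lie inside a longer transcript of the same gene are left out. They stand at chr12:26274241-26274490 (minus strand, Upk3b), chr11:75459131-75459243 (plus strand, Upk1b), chr3:140603987-140604236 (minus strand, Lrrn4) and chr7:112290229-112290373 (minus strand, Lgals2).
Upk3b: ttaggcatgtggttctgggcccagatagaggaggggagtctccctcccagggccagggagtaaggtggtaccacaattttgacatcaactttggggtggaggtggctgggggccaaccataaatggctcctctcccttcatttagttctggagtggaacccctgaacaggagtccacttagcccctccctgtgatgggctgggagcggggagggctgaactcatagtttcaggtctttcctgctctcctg
Upk1b: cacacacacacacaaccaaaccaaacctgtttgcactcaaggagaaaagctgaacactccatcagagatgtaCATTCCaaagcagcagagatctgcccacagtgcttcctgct
Lrrn4: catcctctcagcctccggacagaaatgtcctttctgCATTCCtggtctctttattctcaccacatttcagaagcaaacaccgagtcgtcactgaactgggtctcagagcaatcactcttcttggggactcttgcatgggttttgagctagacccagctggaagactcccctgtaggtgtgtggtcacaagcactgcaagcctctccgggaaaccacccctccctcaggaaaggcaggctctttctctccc
Lgals2: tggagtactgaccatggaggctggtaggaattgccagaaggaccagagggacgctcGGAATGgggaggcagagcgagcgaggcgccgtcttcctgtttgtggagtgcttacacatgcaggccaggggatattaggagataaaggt

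The letters begin 178 bases before the transcript start in Upk1b, 194 in Lgals2 and 214 in Lrrn4. The 6 windows also differed in their base makeup. The windows of Upk3b, Upk1b, Lrrn4 and Lgals2 held 1, 4, 4 and 7 CG dinucleotides, against a median of 5 over all windows, and those of Wt1 and Bnc1 held 27 and 37. The 2 transcription factor genes thus had CG-rich windows and the 4 genes of membrane proteins and a lectin did not. These counts cover all 250 bases, with those inside a longer transcript of the same gene. Such bases made up the whole window of Wt1, 137 bases in Upk1b and 105 in Lgals2. The Wt1 count is therefore one of transcribed sequence. A match is a description of the letters and not of a bound site.

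Array medians ran from 5.21 to 5.42, with the highest in replicate 2 of day 28, and the folds, steps and regained shares of the 7 genes that involve day 28 are given with and without it. A background level of 4.92 was set at the 95th percentile of the means of 1343 olfactory and vomeronasal receptor genes, and 13168 of the remaining genes lay above it. Of the 7 genes, 6 had a mean above it over all 14 pools, and Bnc1 did not.

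Lrrn4 had the largest measured fold between day 7 and day 28 among the genes with pools above background at both ages. Its log2 signal was 8.94, 9.56 and 9.56 in the day 7 pools, 6.85, 6.42, 7.03 and 6.70 at day 18, 5.53, 5.64, 5.58 and 4.90 at day 28, and 6.74, 6.43 and 6.30 at day 60. Every day 28 pool lay under every pool of the other ages, while the day 18 and day 60 pools overlapped. The mean was 9.35 ± 0.36 (SD, n = 3) at day 7 and 5.41 ± 0.35 (n = 4) at day 28, 15.3-fold lower, with 3 of the 4 pools above background. It stood at 6.49 ± 0.23 (n = 3) at day 60, so that 27.4% of the log2 decline had come back.

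Msln, for mesothelin, followed the same course with less scatter. Its pools read 8.38, 8.59 and 8.95 at day 7, 6.72, 6.74, 6.76 and 6.50 at day 18, 5.38, 5.92, 5.73 and 5.69 at day 28, and 6.18, 6.15 and 6.29 at day 60. No 2 ages overlapped, and the order was day 7, day 18, day 60 and day 28. The means were 8.64 ± 0.29 at day 7 and 5.68 ± 0.22 at day 28, 7.78-fold apart. The day 60 mean of 6.21 ± 0.08 regained 17.8% of the log2 decline, a share of log2 units and not of the fold.

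**Figure D1:**
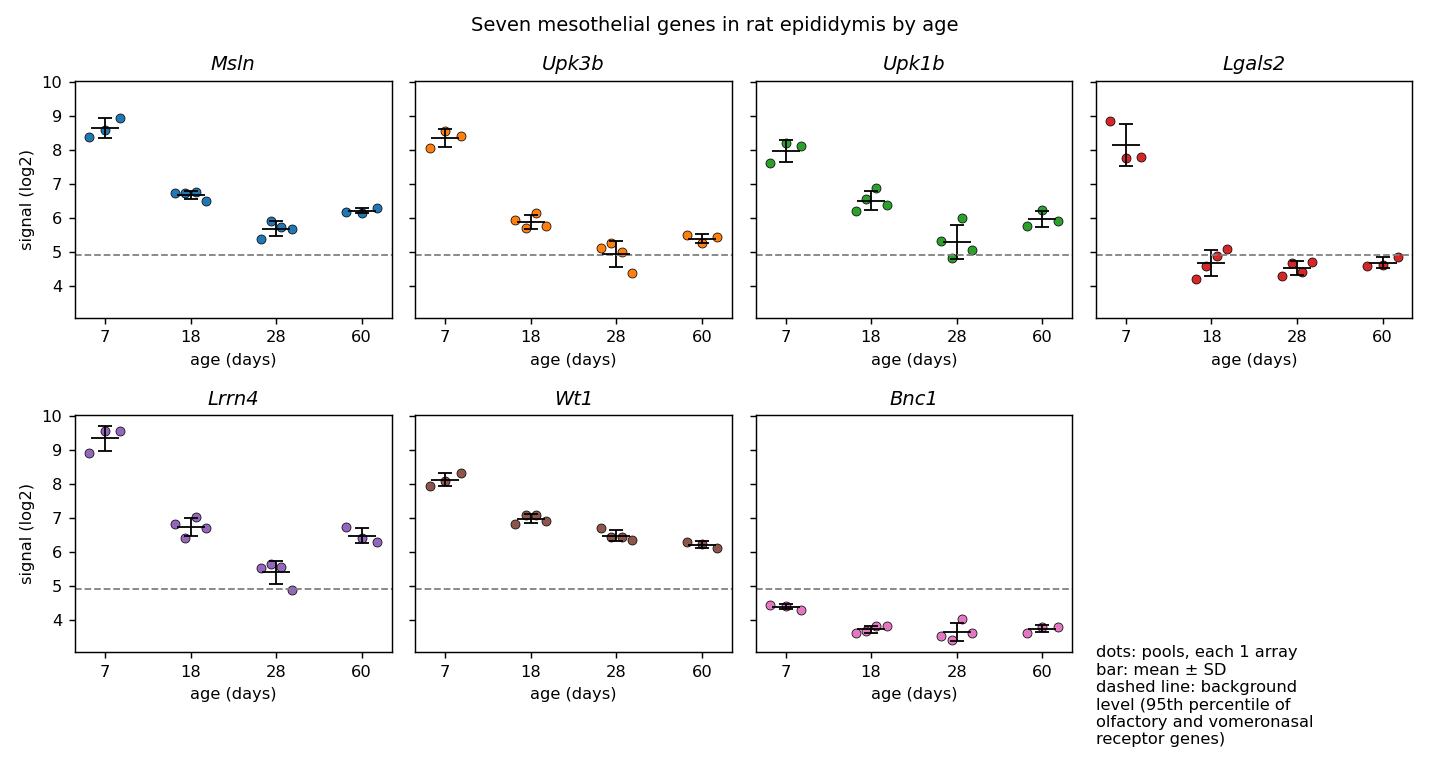
Log2 signal of each of the 7 genes by age in days; each dot is 1 pool on its own array, bars show mean ± SD over 3 or 4 pools, and the dashed line is the background level of 4.92. Msln and Lrrn4 have their lowest pools at day 28 and Wt1 at day 60. Lgals2 is near or under the line from day 18 on, and Bnc1 is under it at every age.

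The uroplakin genes Upk3b and Upk1b came close to background at day 28. For Upk3b the pools read 8.04, 8.55 and 8.42 at day 7, 5.93, 5.69, 6.14 and 5.76 at day 18, 5.11, 5.26, 4.99 and 4.38 at day 28, and 5.50, 5.25 and 5.43 at day 60. One day 28 pool, replicate 4, was under the background level; the mean was 10.6-fold lower at day 28 than at day 7, or 9.63-fold with that pool set to the level. The day 60 pools lay under all day 18 pools, and they overlapped the day 28 pools, with 13.5% of the log2 decline regained. Upk1b read 7.61, 8.20 and 8.12 at day 7, 6.20, 6.55, 6.87 and 6.39 at day 18, 5.33, 4.82, 5.99 and 5.05 at day 28, and 5.77, 6.23 and 5.92 at day 60. Its day 28 pools had the widest spread of any age and gene but Lgals2 at day 7 (SD of 0.51 against 0.61), and the day 60 pools overlapped both the day 28 and the day 18 pools. At day 28, with 3 of 4 pools above background, the Upk1b mean of 5.30 was 6.40-fold lower than at day 7. By day 60, 25.3% of the log2 decline had come back.

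Lgals2, the galectin gene, was near or under background from day 18 on. It read 8.85, 7.77 and 7.80 at day 7 and 4.20, 4.58, 4.89 and 5.07 at day 18, where 1 of 4 pools was above background. The day 28 pools (4.29, 4.68, 4.42 and 4.70) and the day 60 pools (4.58, 4.60 and 4.86) were all under it, so the gene was at least 9.32-fold lower at each of these ages than at day 7. Below that level the ages have no order, so neither a further decline after day 18 nor a return at day 60 could be read for Lgals2.

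Wt1 departed from the course for which the 7 genes were chosen. It read 7.96, 8.10 and 8.34 at day 7, 6.84, 7.11, 7.10 and 6.93 at day 18, 6.71, 6.44, 6.46 and 6.35 at day 28, and 6.31, 6.25 and 6.13 at day 60. No 2 ages overlapped, and day 60 was the lowest of the 4. Its mean was 6.23 ± 0.09, against 6.49 ± 0.16 at day 28. This last difference (-0.26 ± 0.11, SE) was small and was not called in the fit over all genes described below. Wt1 was 3.12-fold lower at day 28 than at day 7 and 3.74-fold lower at day 60, the smallest decline of the 6 genes above background. Bnc1, the other zinc finger gene, read 4.46, 4.43 and 4.31 at day 7, 3.63 to 3.84 at day 18, 3.41 to 4.04 at day 28 and 3.64 to 3.81 at day 60. All 14 values were under the background level, so no fold is given for Bnc1 and its detection in these pools was not shown.

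By step, the log2 difference of day 18 minus day 7 was -3.46 ± 0.24 (SE) for Lgals2, -2.60 ± 0.20 for Lrrn4, -2.46 ± 0.18 for Upk3b, -1.96 ± 0.14 for Msln, -1.47 ± 0.24 for Upk1b and -1.14 ± 0.11 for Wt1. From day 18 to day 28 Lrrn4 (-1.34 ± 0.19), Upk1b (-1.21 ± 0.22), Msln (means of 6.68 and 5.68, SE of the difference 0.13), Upk3b (-0.94 ± 0.17) and Wt1 (-0.50 ± 0.10) were lower again. The first step was the larger one in Lrrn4, Msln, Upk3b and Wt1. In Upk1b the steps were not told apart. On leaving out 1 pool, its first step ran from -1.65 to -1.36 and its second from -1.44 to -1.04. From day 28 to day 60 the differences were 1.08 ± 0.20 for Lrrn4, 0.68 ± 0.24 for Upk1b, 0.53 ± 0.14 for Msln, 0.46 ± 0.18 for Upk3b, 0.16 ± 0.24 for Lgals2 and -0.26 ± 0.11 for Wt1. Without replicate 2 of day 28 these last differences were 1.16 for Lrrn4, 0.52 for Upk1b, 0.61 for Msln, 0.57 for Upk3b, 0.21 for Lgals2 and -0.28 for Wt1. Those of Lgals2 run between values that are all under background, so no return is read from them. Without the same pool, the differences of day 28 minus day 18 were -1.41 for Lrrn4, -1.04 for Upk1b, -1.08 for Msln, -1.05 for Upk3b and -0.48 for Wt1. The day 7 over day 28 folds were then 16.2 for Lrrn4, 8.22 for Msln, 11.4 for Upk3b, 5.72 for Upk1b and 3.08 for Wt1. The shares of the log2 decline regained were 28.8%, 19.9%, 16.1% and 20.5% for the first 4 of these genes. Leaving out that pool thus moved Upk1b, in which it was the lowest pool of its age, towards a smaller fold and Lrrn4, Msln and Upk3b towards larger ones. Steps that share an age share its pools, so they are not independent of each other.

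**Figure D2:**
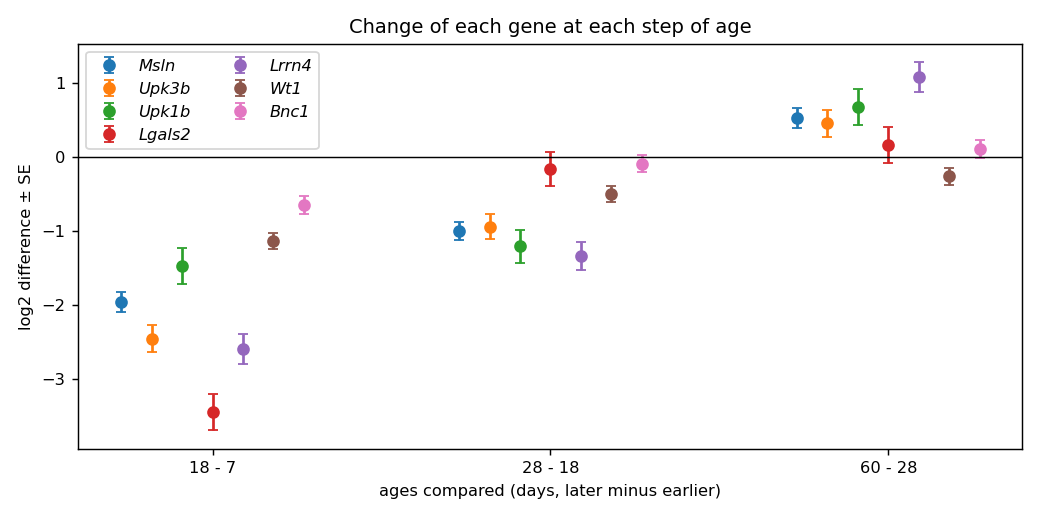
Log2 difference ± SE of each of the 7 genes for day 18 minus day 7, day 28 minus day 18 and day 60 minus day 28; points under 0 are lower at the later age. Lrrn4 has the largest difference in the last step and Wt1 is under 0 in all 3; the later steps of Lgals2 and all steps of Bnc1 run between values mostly or wholly under background.

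In the fit over all genes (limma's moderated test, Benjamini-Hochberg over 18166 genes, threshold 0.05) the call lower at day 18 than at day 7 went to 20.7% of the genes and to 7 of the 7, with Bnc1 among them although its values are all under background. Lower at day 28 than at day 7 were 27.4% of all genes and 7 of the 7, and lower at day 60 than at day 7 were 27.6% and 7 of the 7. At day 28 against day 18 the shares were 14.3% and 5 of 7, and at day 60 against day 28 13.8% were called higher, among them Lrrn4 and Msln. The combination of both calls, lower at day 28 than at day 7 and higher at day 60 than at day 28, occurred in 4.25% of all genes and in 2 of the 7. Every day 28 pool lay under every day 7 and every day 60 pool in the same 2, Msln and Lrrn4, and in 5.59% of all genes. These counts follow from how the 7 genes were chosen and are no test of them. Ranked by the log2 difference of day 28 and day 7 over all 14 pools, Lrrn4 was at place 7 and Upk3b at 15. Msln was at 24, Upk1b at 37 and Wt1 at 203 of 18166 genes. Lgals2 and Bnc1 are given no place, their day 28 values being under background. The places of Upk3b and Upk1b are uncertain, as both came close to background at day 28. Like the counts, the places follow from how the genes were chosen and are no test of them.

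How the pools of 1 age differ among themselves was not used in choosing the genes. Replicate 1 of day 7 had the lowest value of its age in 5 of the 7 genes (Msln, Upk3b, Upk1b, Lrrn4 and Wt1), by 0.42 under the age mean for Lrrn4, and the highest value in Lgals2 and Bnc1. Lgals2 in that pool was 0.71 above its age mean, on the other side of it from Lrrn4, Upk3b, Upk1b, Msln and Wt1. At day 18, replicate 3 was above the age mean in 7 of 7 genes and was the highest pool in 5. Lgals2 and Bnc1 were under background in that pool, and Bnc1 is among those 5. At day 28, replicate 4 was 0.56 and 0.52 under the age mean in Upk3b and Lrrn4 and at the mean in Msln, while replicate 3 was 0.69 above it in Upk1b. Replicate 2 of day 28 was the highest pool of its age in Msln, Upk3b and Lrrn4 and the lowest in Upk1b and Bnc1. At day 60 the pools averaged over the 7 genes lay between 5.53 and 5.54 and did not separate. Single genes still differed between these pools. In replicate 1, Lrrn4 was 0.25 above its age mean and Upk1b 0.20 under it. These are single pools, and the deviations were not tested.

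**Figure D3:**
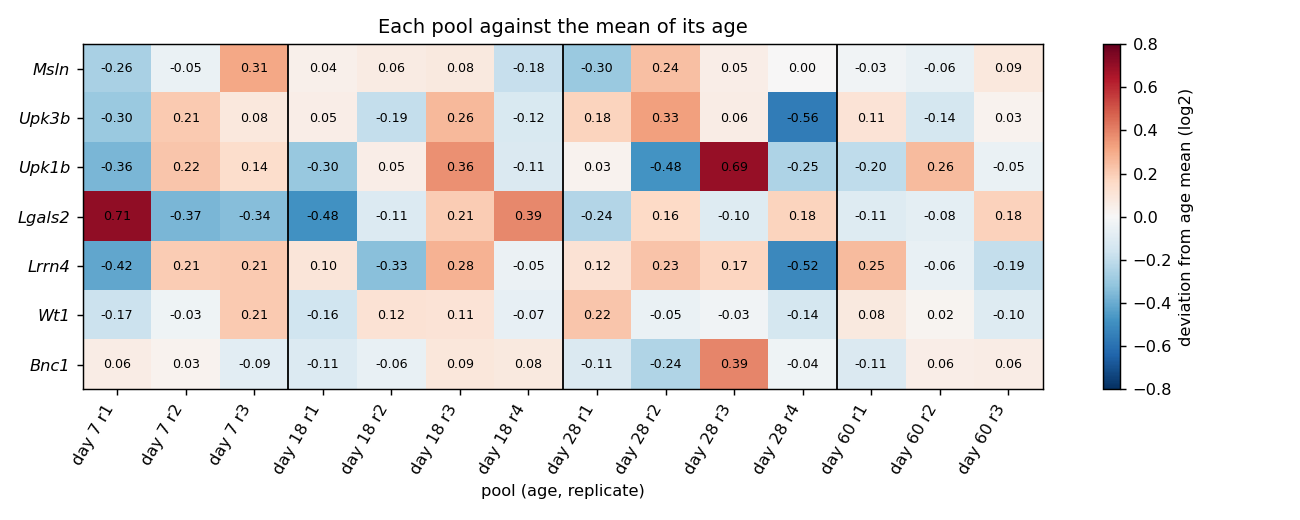
Deviation of each pool (columns, by age and replicate) from the mean of its age for each of the 7 genes (rows), in log2 units, with the value printed in the cell. In the first column Lgals2 is 0.71 above its mean while Lrrn4 is 0.42 below. In the column of day 18 replicate 3 every gene is above its mean, Lgals2 and Bnc1 with values under background.

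Other genes named for mesothelium or its origin did not all share this course. A list of 23 such genes, 16 for surface and secreted proteins and 7 for transcription factors of coelomic epithelium, had 22 members on the array under a single symbol (all but Muc16), of which 18 had a mean above background. Between day 7 and day 18, 13 of the 22 fell and 4 rose, where 20.7% of all genes fell and 17.4% rose, and the median log2 difference was -0.54 against 0.01 over all genes. From day 18 to day 28, 6 fell and 1 rose (14.3% and 10.5% of all genes). Over the whole span from day 7 to day 60, 13 fell and 4 rose (27.6% and 21.7%), and from day 7 to day 28, 14 fell and 4 rose (27.4% and 20.5%). Between day 28 and day 60, 2 fell and 4 rose, where 11.2% and 13.8% of all genes did; with each array centred on its median the list's counts were again 2 and 4, while all genes called lower went from 2039 to 1104. One of the 22, Pkhd1l1, was called in both directions as the chosen course requires, or close to the 4.25% found over all genes.

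Pkhd1l1, a large membrane protein related to fibrocystin, read 6.04 ± 0.15, 4.93 ± 0.09, 4.54 ± 0.04 and 5.06 ± 0.07 (log2 signal, mean ± SD) at the 4 ages in order. It fell by 1.11 ± 0.081 to day 18 and by 0.39 ± 0.075 to day 28 and rose by 0.52 ± 0.081 to day 60 (adjusted p = 6.34e-08, 0.00141 and 0.000328). Its day 28 pools were all under background and its day 18 mean was close to that level, so the sizes of these steps are uncertain. Gpm6a, a membrane glycoprotein of neurons that also labels mesothelium, read 7.27 ± 0.19, 6.60 ± 0.31, 4.98 ± 0.55 and 5.55 ± 0.27. Its fall between day 18 and day 28, by 1.61 ± 0.23, passed (adjusted p = 0.000115), and the difference of 0.57 ± 0.25 at day 60 did not (adjusted p = 0.11). The day 28 mean of Gpm6a was close to background, with its lowest pool (4.58) under it, so these sizes are uncertain as well. The smaller fall of Gpm6a to day 18 (by 0.67 ± 0.25, adjusted p = 0.0448) was lost on leaving out any 1 of replicates 1, 2 and 3 of day 7, 1 and 3 of day 18, 4 of day 28, and 1 and 3 of day 60 (adjusted p = 0.0502 to 0.151), and with quantile normalization (0.071). Mslnl, a paralog of Msln in the list of related genes, fell by 0.96 ± 0.13 to day 18 (adjusted p = 2.31e-05) and rose by 0.56 ± 0.13 from day 28 to day 60 (adjusted p = 0.00454); its means of 4.90 at day 18 and 4.67 at day 28 were under background, so these sizes are uncertain too. Among the genes that fell without a rise at day 60, Aldh1a2, which makes retinoic acid, was 3.61-fold lower at day 18 (adjusted p = 6.95e-10), and the R-spondin gene Rspo1 was 1.86-fold lower (adjusted p = 7.22e-07).

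Other genes of that list rose. Calb2, the calcium-binding protein calretinin of mesothelium and neurons, rose at every step, from 4.41 ± 0.11 at day 7, under background, to 7.61 ± 0.14 at day 60 (adjusted p for day 60 against day 7 = 1.23e-10). Slpi, a protease inhibitor of many epithelia, rose by 1.74 ± 0.21 to day 18 (adjusted p = 1.32e-05), and complement C3 rose by 1.48 ± 0.10 (adjusted p = 3.01e-08), fell by 1.02 ± 0.093 to day 28 and rose by 1.15 ± 0.10 to day 60. Thbd, thrombomodulin of endothelium and mesothelium, rose by 0.88 ± 0.12 in the last step (adjusted p = 9.38e-05). Pdpn, podoplanin, which mesothelium shares with lymphatic vessels, stayed between means of 8.48 and 8.61 and passed no test.

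**Figure D4:**
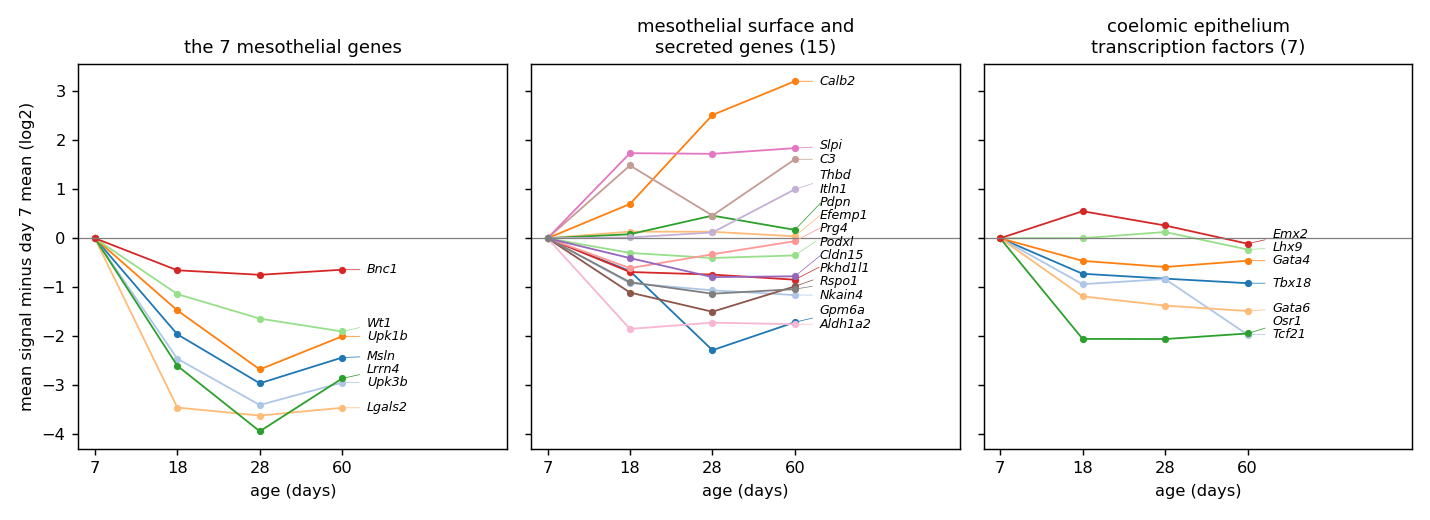
Mean log2 signal of each gene minus its own day 7 mean, at 7, 18, 28 and 60 days, for the 7 genes (left), 15 other mesothelial surface and secreted genes (centre) and 7 transcription factors of coelomic epithelium (right); names stand beside the day 60 points. All lines on the left are under 0 after day 7, while the centre panel holds lines of both directions, with Calb2 the highest and Gpm6a and Aldh1a2 the lowest.

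The transcription factors of the coelomic epithelium fell mostly in the first step. Of the 7, 5 fell between day 7 and day 18 and Emx2 rose, where 20.7% of all genes fell and 17.4% rose. Of the 5, Tbx18 fell to a day 18 mean of 4.45, under background, and the call of Gata4 (adjusted p = 0.027) was lost without replicate 2 or 3 of day 7 or replicate 1 or 3 of day 18 (adjusted p = 0.102, 0.146, 0.060 and 0.063). Osr1, of intermediate and lateral mesoderm, fell by 2.05 ± 0.14 (adjusted p = 3.26e-08) and then read 8.60, 8.60 and 8.71 at the last 3 ages. Gata6 fell by 1.19 ± 0.14 (adjusted p = 5.89e-06). Tcf21, which fibroblasts also express, fell by 0.94 ± 0.11 to day 18 and by a further 1.13 ± 0.11 from day 28 to day 60 (adjusted p = 1.14e-05 and 7.44e-06). At day 60 against day 28, 0 of the 7 were called higher by limma (0 at an unadjusted p under 0.05), and Tcf21 and Emx2 were called lower. Of all genes, 13.8% were called higher and 11.2% lower in this step. With 7 genes, the 0 is near the first share and nothing is read from it. Lhx9 passed no test and, like Tbx18, had a mean over all pools under background.

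The keratins Krt7, Krt8, Krt18 and Krt19, with the membrane linker ezrin (Ezr), are shared by mesothelium and duct epithelium. Krt7 fell at all 3 steps, by 0.89 ± 0.12, 0.80 ± 0.11 and 0.56 ± 0.12 (adjusted p = 3.03e-05, 9.46e-05 and 0.00359). The other 4 rose between day 7 and day 18, where 17.4% of all genes rose and 20.7% fell. Ezr rose by 0.87 ± 0.08 (adjusted p = 3.53e-07) and Krt19 by 1.11 ± 0.09 (adjusted p = 1.82e-07). Krt19 then fell by 1.03 ± 0.08 and 0.63 ± 0.09 (adjusted p = 5.07e-07 and 0.00016) and ended 0.54 under its day 7 mean, and Ezr fell by 0.30 ± 0.08 in the last step (adjusted p = 0.0101).

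Relatives of the 7 genes are given by family. Of the other uroplakins Upk1a, Upk2, Upk3a and Upk3bl1, 0 were called lower at day 18 than at day 7 by limma (0 at an unadjusted p under 0.05), where 20.7% of all genes were; Upk3b and Upk1b were 5.49-fold and 2.77-fold lower. Upk1a was called higher (0.66 ± 0.19, adjusted p = 0.0113, or 0.0685 without replicate 1 of day 7). Upk3bl1, which resembles Upk3b, stayed at 6.51, 6.53 and 6.53 until day 28 and fell by 0.50 ± 0.12 to day 60 (adjusted p = 0.00563). Of 9 other galectin genes 3 fell and 4 rose in the first step, against 20.7% and 17.4% of all genes. Lgals1 fell by 1.08 ± 0.07 (adjusted p = 1.92e-08) and Lgals3 rose by 1.31 ± 0.10 (adjusted p = 6.28e-08). Lgals5 fell by 1.20 ± 0.14 and rose by 0.74 ± 0.14 between day 28 and day 60 (adjusted p = 7.04e-06 and 0.00131). Bnc2, the paralog of Bnc1 and a gene of fibroblasts, was well above background and fell from 8.14 ± 0.13 to 6.64 ± 0.11 between day 7 and day 18 (adjusted p = 6.09e-09), and Lrrn1 fell from 6.15 ± 0.17 to values under background (adjusted p = 1.3e-05). Signal that may be shared between paralogs was not separated.

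Markers of other cell types moved over the same ages, and their part in the course of the 7 genes was not tested. Between day 7 and day 18, 20.7% of all genes were called lower and 17.4% higher. Fibroblast markers were called lower for 6 of 7 genes at day 18, and their mean level per pool went from 11.84 to 11.94 at day 7 to 11.25 to 11.37 at day 18 and 11.10 to 11.17 at day 60. The 7 mesothelial genes averaged 7.75 to 7.93, 5.77 to 6.09, 4.95 to 5.32 and 5.53 to 5.54 per pool at the 4 ages. Duct epithelium markers rose in 8 of 8 genes to day 18, from pool means of 9.29 to 9.50 up to 10.05 to 10.15, and stayed between 9.99 and 10.15 afterwards. Adipocyte markers, which could come from fat on the organ, rose in 5 of 8 genes to day 18 and had pool means of 5.30 to 5.60, 5.79 to 6.73, 6.46 to 7.23 and 7.44 to 7.60. From day 18 to day 28, where 10.5% of all genes rose, 3 of 4 smooth muscle and 3 of 3 endothelium markers rose, with pool means going from 10.07 to 10.45 up to 10.82 to 11.13 and from 6.55 to 6.67 up to 7.04 to 7.23. Before that, from day 7 to day 18, 2 of 4 smooth muscle markers fell, and of 3 endothelium markers 1 fell and 1 rose. Their day 7 pool means were 10.34 to 10.81 and 6.80 to 6.97. From day 28 to day 60, where 13.8% of all genes rose, 2 of 4 macrophage markers rose, with pool means of 6.91 to 7.12 and then 7.55 to 7.69. Sertoli cells, which also carry Wt1, had 7 markers on the array, of which limma called 0 at day 18 against day 7 (0 lower and 1 higher at an unadjusted p under 0.05). Their day 7 means were on both sides of the background level of 4.92, with Fshr at 4.46, Gata1 at 4.59, Amh at 4.93, Sox9 at 5.03, Dhh at 5.79, Inha at 6.71 and Cldn11 at 8.46. Of podocytes, another source of Wt1, 2 markers were measured, Nphs1 at 4.98 and Ptpro at 5.06.

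For each of the 7 genes the most similar courses over the 14 pools were looked up by Pearson correlation, as a description. Only genes with a mean over all pools above background were searched. The 14 points fall into 4 ages, so any gene with a like course over age scores high. Among the 7 themselves the correlation ran from 0.79 (Wt1 and Bnc1) to 0.99 (Upk3b and Lrrn4). Without Bnc1, whose values are all under background, the lowest was 0.82 (Upk1b and Lgals2). Npy, neuropeptide Y, was among the 5 most similar genes of Msln, Upk3b and Lrrn4 (0.99, 0.98 and 0.98 over 14 pools), with means of 8.49, 6.17, 5.37 and 5.94. Tcf7l1, a transcription factor of the Wnt pathway, was the most similar to Lrrn4 (0.99), followed by Lgr5, a receptor of R-spondins (0.98), and the phosphatase gene Dusp1 (0.98), with means of 11.42, 9.03, 8.29 and 9.24. Kcne5, a potassium channel subunit, came first for Msln (0.99) and Id1, an inhibitor of helix-loop-helix factors, for Upk1b (0.97). Wt1 was most like Igf2, the fetal growth factor (0.98), which had means of 11.20, 8.64, 7.57 and 6.85. Lgals2 was most like Bpifc (0.99), of the family of lipid-binding BPI proteins, which read 8.24, 7.38 and 7.88 in the day 7 pools and 4.79 ± 0.16 at day 18. The Bpifc means at day 18 and day 28 (4.79 and 4.64) were under background, like most Lgals2 values after day 7. The likeness of these genes thus rests mainly on the step from day 7 to day 18. As with Lgals2, replicate 1 was the highest day 7 pool for Bpifc. Bpifc was picked by its correlation over these same pools, so this is no separate sign of likeness. Averaged over the 7 genes, the highest mean correlations belonged to Hdac3, Myrf, Tlcd3a, Prtfdc1 and Fos (0.94 each). Bnc1, with all values under background, and Lgals2, with most under it after day 7, weigh as much in this mean as the others. Fos, an immediate early gene, had means of 10.76, 6.89, 6.05 and 6.17.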

How the data were processed

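The deposited table holds log2 signals that the authors made with RMA and the Transcriptome Analysis Console, per the submitters' processing notes; versions, settings and annotation are not given in the sources used here. It has 36685 transcript clusters, of which 18511 had 1 gene symbol in the platform annotation given, 575 had several and 17599 were not listed. Through the gene identifier 18394 symbols matched RefSeq and 0 changed. For 291 genes with several clusters the one with the highest mean was used, which left 18166 genes with no filter. One mean per age was fitted to all 14 pools with limma 3.58.1 in R 4.3.3 (lmFit, eBayes), and p was adjusted by Benjamini-Hochberg in each comparison, with a threshold of 0.05. A level carries its SD over pools and a difference its SE from the fit. Nothing says that the pools came from separate litters or days, so p measures the spread between these pools. The fit was tested on simulated data. The 7 genes, the lists and the tests were chosen with earlier results of these data known. Values are printed for the 7 genes, for the 5 genes most correlated with each, and for the largest calls of each list, with further list members named as examples after their values were seen; predicted loci were passed over. Alternatives were median centring, quantile normalization, only genes above background, leaving out each pool, weights per array, a replicate block, fitting 1 pair of ages alone, averaging a gene's clusters, and robust hyperparameters with an intensity trend. The number of pools limits the precision.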

Additional observations from a re-analysis of the deposited data

Results flagged for a closer look

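In groups of 4 pools, a value was noted where its gap to the nearest pool was more than Dixon's critical share of the group's range; chance gives this in about 1 in 20 groups, and 58 groups were examined over the 7 genes and the 22 other mesothelial genes. Among the 7, Msln in replicate 4 of day 18 was low, at 6.50 against 6.72 to 6.76 in the other pools. Lrrn4 in replicate 4 of day 28 was low as well, at 4.90 against 5.53 to 5.64, which places that pool just under the background level. Of the other mesothelial genes, Efemp1 was at 8.42 in replicate 4 of day 18, against 8.63 to 8.67, and Aldh1a2 at 8.22 in replicate 2 of day 28, against 8.49 to 8.52. The 4 values lie in 3 pools.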

How the results depend on the processing

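The differences of the 7 genes in the 5 comparisons moved by less than the spread between pools under each of the 765 combinations of gene, comparison and alternative that were run; the largest shift apart from leaving out a pool was 0.18 (array weights). Bnc1 could not be given among genes above background. Of the other mesothelial genes, the 1 called higher at day 28 than at day 18 became 2 with an intensity trend and robust hyperparameters and with array weights, and 1 to 2 on leaving out 1 pool (2 without replicate 1 of day 60). All genes called lower at day 60 than at day 28 went from 2039 to 1104 with each array centred on its median; of the calls there, 55.2% were higher before centring and 71.7% after. The same share was 42.3% and then 31.7% at day 28 against day 18, and 42.8% and then 31.6% at day 28 against day 7, where centring shifted the median of all genes by -0.10. Leaving out 1 pool gave 11 to 14 other mesothelial genes lower at day 18 than at day 7. The replicate numbers did not pair the pools: 0 of 19 pairs with the same number in different ages had deviations that correlated above 0.1, and 3 of 14 pools correlated best with their own number. With the replicate block 13 of the 22 fell and 4 rose to day 18, and no count moved by over 1.5 times. For single genes of the lists, and for day 28 against day 7, the alternatives were added after seeing the data: single genes lost a call in 96 combinations of gene, comparison and alternative, gained one in 37 and kept their side in 5007, and none reversed.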
